A study of Mus musculus with 2 samples.

Results

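The 10 genes described here lie at the branch point of pyruvate, and their RNA was measured in beta cells of mutant mice. They were the lactate dehydrogenases Ldha and Ldhb, the monocarboxylate transporters Slc16a1 and Slc16a3, the mitochondrial pyruvate carrier subunits Mpc1 and Mpc2, pyruvate carboxylase (Pcx), and the pyruvate dehydrogenase kinases Pdk1, Pdk2 and Pdk4. The genes were chosen by function, with earlier results of these data known. Each of the 10 symbols matched 1 of the 55487 genes in the deposited tables. Pyruvate, the end product of glycolysis, can be reduced to lactate in the cytosol, leave the cell through monocarboxylate transporters, or enter mitochondria through the Mpc1 and Mpc2 carrier. In the mitochondrial matrix it is carboxylated to oxaloacetate by Pcx or oxidised to acetyl-CoA by the pyruvate dehydrogenase complex, which the Pdk enzymes switch off by phosphorylation. Normal beta cells are known for abundant pyruvate carboxylase and for keeping Ldha and Slc16a1 very low, so that pyruvate is directed to mitochondria and circulating lactate or pyruvate does not trigger insulin release.

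RNA sequencing was performed on 2 libraries, both from sorted islet cells of mice aged 2 months with the genotype label MytF/F; Myt2F/F; Myt3F/F; RipCre, in which males and females were pooled. The 3 floxed genes encode zinc-finger transcription factors of the Myt family, listed in the tables as Myt1, Myt1l and St18, and RipCre is a Cre recombinase driven by the rat insulin promoter, so that deletion is directed to insulin-producing cells. The second library is named a duplicate, and whether its cells came from other mice is not stated. Control cells were not analysed here, so every value below describes mutant cells and none compares mutant with control.

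Promoter windows of Slc16a1 and Ldha, the genes known to be kept low in beta cells, are shown beside those of Pcx and Pdk4, the most abundant of the 10. Each window holds 250 bases before and 50 bases from an annotated RefSeq start on GRCm38.p6, written 5′ to 3′ on the gene's strand. Capitals mark matches, on either strand, to ACGTG or GCGTG (cores of the element bound by hypoxia-inducible factors), to AAGTT (core of the element bound by Myt factors) and to CACGTG (the E-box that also contains ACGTG on both strands).
Slc16a1 (chr3:104638414-104638713, plus strand): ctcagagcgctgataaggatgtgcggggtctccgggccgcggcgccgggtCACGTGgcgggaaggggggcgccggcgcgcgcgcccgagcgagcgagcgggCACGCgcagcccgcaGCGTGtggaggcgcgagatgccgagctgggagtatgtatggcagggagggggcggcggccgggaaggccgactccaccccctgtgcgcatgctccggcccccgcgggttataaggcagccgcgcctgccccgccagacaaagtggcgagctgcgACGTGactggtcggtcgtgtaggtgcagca
Ldha (chr7:46845554-46845853, plus strand): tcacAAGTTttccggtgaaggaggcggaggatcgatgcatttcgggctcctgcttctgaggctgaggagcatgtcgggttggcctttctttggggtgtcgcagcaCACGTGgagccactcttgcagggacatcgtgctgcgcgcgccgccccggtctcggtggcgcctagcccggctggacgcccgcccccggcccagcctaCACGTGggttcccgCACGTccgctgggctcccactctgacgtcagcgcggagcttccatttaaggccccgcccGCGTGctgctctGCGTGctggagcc
Pcx (chr19:4510222-4510521, plus strand): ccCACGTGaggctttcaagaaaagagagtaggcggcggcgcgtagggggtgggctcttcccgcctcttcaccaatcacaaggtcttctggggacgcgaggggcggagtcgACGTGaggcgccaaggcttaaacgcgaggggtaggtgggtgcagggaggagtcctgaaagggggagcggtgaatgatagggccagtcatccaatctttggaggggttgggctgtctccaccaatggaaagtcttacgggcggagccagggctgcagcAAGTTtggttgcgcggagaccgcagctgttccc
Pdk4 (chr6:5496229-5496528, minus strand): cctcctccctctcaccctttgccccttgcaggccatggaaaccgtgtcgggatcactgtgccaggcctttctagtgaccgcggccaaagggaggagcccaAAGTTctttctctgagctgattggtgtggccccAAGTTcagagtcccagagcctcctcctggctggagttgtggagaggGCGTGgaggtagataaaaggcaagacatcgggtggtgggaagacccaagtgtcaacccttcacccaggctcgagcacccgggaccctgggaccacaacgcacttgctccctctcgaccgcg
The window of Slc16a1, a nearly silent gene, held 42 CpG dinucleotides, the most of the 15 windows of the 10 genes, while that of Pdk4, the most abundant, held 12. The first windows of Ldha and Pcx held 30 and 20 CpG, and the median over all 32851 mouse windows was 7. ACGTG or GCGTG was found in 11 of the 15 windows, against 43.8% of all windows, and each of the 10 genes had at least 1 such window. AAGTT was found for 4 genes, in 6 of the 15 windows, against 39.3% of all windows. CACGTG was found for Ldha, Slc16a1, Pcx and Pdk2, in 4 of the 15 windows, against 7.15% of all windows, and Ldha had 2 copies. It thus stood both before the nearly silent Slc16a1 and before the abundant Pcx. Both hypoxia cores and the E-box contain a CpG, whereas the Myt core does not. Of all windows, 43.5% held 10 or more CpG, and the windows printed above all held more than 10. The shares of all windows were not matched for CpG content or for the number of windows per gene. They therefore cannot tell whether the hypoxia cores or the E-box are more frequent in these genes than in other windows rich in CpG. Gene counts cannot tell which annotated start was used.

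The libraries held 50121771 and 39003197 counted reads. Levels are given as CPM (counts scaled to a common library total) and, for comparisons between genes, as TPM (the same scaled also by gene length). A count of 3 reads, the limit that a count of 0 allows, equalled 0.0599 CPM in library 1 but 0.0769 CPM in the shallower library 2. The targeted genes were counted at 77.6 and 65.4 CPM (Myt1), 44.5 and 39.05 CPM (Myt1l) and 72.7 and 56.5 CPM (St18), and since a gene's count pools its deleted and remaining exons, these values do not check the deletion. All 10 beta-cell markers were detected, with a median of 817 TPM. The libraries stood apart in acinar transcripts. All 9 tested of 10 acinar markers were higher in library 2, with sums of 113 CPM in library 1 against 547 CPM in library 2, and the defining factor Ptf1a had 0 and 3 reads. The Y-linked gene Uty had 3728 reads in library 1 and 1663 in library 2, a larger difference than that of the library totals. The mix of males and females in each library was not examined. The sums of markers of other cell types were 1414 and 1176 CPM for alpha cells, 1660 and 1247 CPM for delta cells, 975 and 1211 CPM for PP cells, and 716 and 1031 CPM for ductal cells. They were lower for immune cells (53.9 and 44.7 CPM), endothelial cells (31.1 and 22.7 CPM), mesenchymal cells (14.01 and 9.31 CPM) and erythroid cells (1.34 and 2.67 CPM). A single gene made up most of the ductal and of the immune sums. Spp1 gave 659 and 967 CPM of the ductal sums, while Krt19 had 2.17 and 4.23 CPM and Sox9 0.479 and 0.718 CPM. C1qa gave 39.1 and 35.3 CPM of the immune sums, while Ptprc had 0.878 and 0.487 CPM. Detected markers numbered 8 of 10 for acinar, 7 of 8 for alpha, 5 of 5 for delta, 2 of 2 for PP, 4 of 5 for ductal, 2 of 8 for immune, 6 of 8 for endothelial, 4 of 7 for mesenchymal and 0 of 5 for erythroid cells, and no marker was at 0 in both libraries.

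Of the 10 genes, 8 were detected, meaning at least 1 CPM in both libraries, against 24.4% of all genes of the tables. The median of the 10 genes was 11.1 TPM, against 14.1 TPM over the 13955 genes with a mean of at least 1 CPM. Their levels spread 982-fold between Pdk4, at the top, and Slc16a1, at the bottom. Both monocarboxylate transporters fell short of detection, and Ldha only just reached it.

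**Figure D1:**
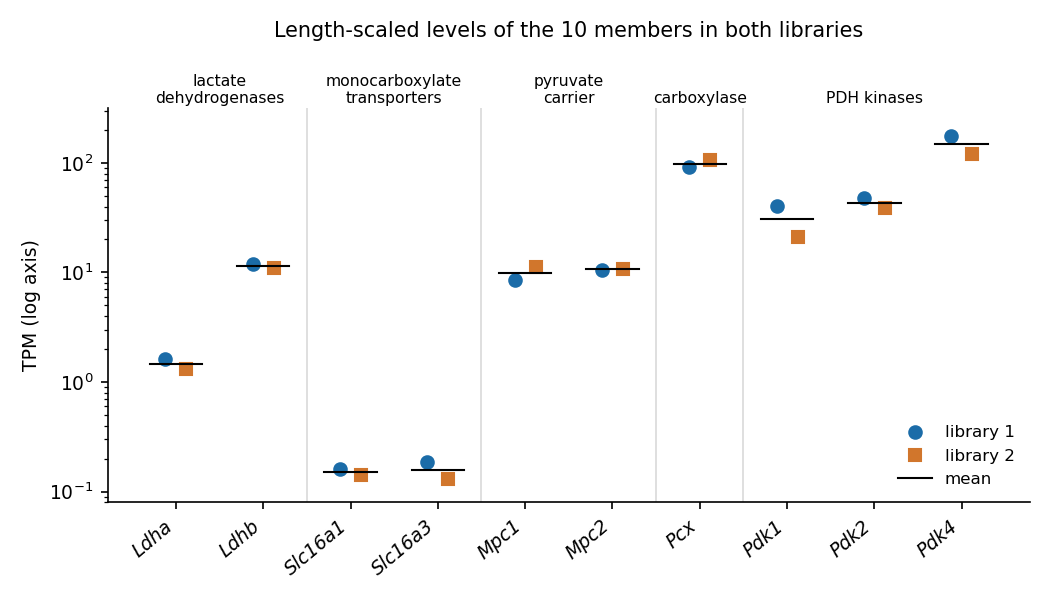
TPM of each of the 10 genes in library 1 (circles) and library 2 (squares), on a log axis, with the mean of both as a line. Pdk4 and Pcx lie between 90.9 and 176 TPM, whereas Slc16a1 and Slc16a3 lie below 0.19 TPM.

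The lactate dehydrogenase subunits were unequal. Ldha encodes the muscle-type subunit, which favours the reduction of pyruvate to lactate, and was low. It was counted with 98 reads in library 1 and 62 in library 2, which gave 1.96 CPM (exact 95% binomial interval 1.59 to 2.38) and 1.59 CPM (1.22 to 2.04). Its length-scaled mean was 1.47 ± 0.226 TPM (SD, n = 2), at percentile 7.70 of the genes with at least 1 CPM. Ldhb encodes the heart-type subunit, which is more active at low pyruvate. It had 343 and 249 reads, or 6.84 CPM (6.14 to 7.61) and 6.38 CPM (5.62 to 7.23), and a mean of 11.5 ± 0.662 TPM (SD, n = 2), at percentile 44.3. Ldhb thus exceeded Ldha in both libraries, and the ranges did not overlap. Markers of cells other than beta cells were present at the sums given above, and the part of such cells in the reads of Ldha and Ldhb was not tested. Ldhb made up 88.1% and 89.4% of the summed TPM of both genes. The ratio of Ldhb over Ldha within a library was 7.38 in library 1 (exact 95% interval 5.88 to 9.33) and 8.47 in library 2 (6.39 to 11.4), a mean log2 ratio of 2.98 ± 0.14 (SD, n = 2). Without length scaling the mean log2 ratio was 1.91, and with the longest transcript as the length it was 2.38.

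Reads of both subunit genes may be shared with processed pseudogenes. Of all 50-base words of the principal transcript, 17.1% for Ldha and 27.0% for Ldhb also occurred in another annotated gene. The 14 pseudogenes that share such words with Ldha had 16 and 20 reads in all, and adding them raised the mean of Ldha to 1.81 TPM. The copy of Ldhb, listed as Ldhb-ps, had 9 and 2 reads, and adding them gave Ldhb 11.7 TPM. With the counted reads of the copies added, Ldha still lay below Ldhb. The treatment of reads that match several places is not known, and any left out of the counts would not be recovered this way. On GRCm38 (GENCODE M21), Ldha (ENSMUSG00000063229) spans chr7:46841475-46855627, plus strand, in 11 merged exons, and Ldhb (ENSMUSG00000030246) spans chr6:142490249-142507957, minus strand, in 9. Among the other lactate dehydrogenase genes, only the D-lactate dehydrogenase Ldhd was detected, at 9.19 and 9.13 TPM, and no word of its principal transcript was shared, though 42.2% of its merged exon bases lie under a gene on the opposite strand. The testis-type Ldhc had 4 reads and 1 read, and Ldhal6b had none in either library. For Ldhal6b, 100% of the words of the principal transcript were shared, and 100% of its exon bases lie under an opposite-strand gene. Its lack of reads therefore cannot be read as absence.

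Transcripts of Slc16a1 and Slc16a3, which encode carriers of the plasma membrane, were nearly absent. Slc16a1 encodes MCT1, the widely expressed carrier that moves lactate and pyruvate with a proton. It had 13 reads in library 1 and 9 in library 2, or 0.259 CPM (exact 95% interval 0.138 to 0.444) and 0.231 CPM (0.106 to 0.438). Slc16a3 encodes MCT4, the lactate exporter of glycolytic cells. It had 18 and 10 reads, or 0.359 CPM (0.213 to 0.568) and 0.256 CPM (0.123 to 0.472). Both genes were above the limit of 3 reads in both libraries and under 1 CPM in both. Their means were 0.152 ± 0.0138 TPM for Slc16a1 and 0.159 ± 0.0387 TPM for Slc16a3 (SD, n = 2), and their ranges overlapped. The ratio of Slc16a3 over Slc16a1 was 1.15 (0.534 to 2.56) in library 1 and 0.925 (0.338 to 2.57) in library 2, so no order between them was detectable at this depth. Fewer cells with the transcript and less transcript per cell cannot be told apart in these bulk libraries, here or for any other gene. Markers of other endocrine, acinar, ductal, endothelial, mesenchymal, immune and erythroid cells were present at the sums given above. The part of such cells in these few reads was not tested. Neither gene shared any 50-base word with another gene. Slc16a1 (ENSMUSG00000032902) spans chr3:104638668-104658462 in 5 merged exons, and Slc16a3 (ENSMUSG00000025161) spans chr11:120948480-120960868 in 9; both are plus-strand genes.

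The low level was not shared by the whole transporter family. Of 14 Slc16 genes, a list chosen after values were seen, 11 were detected, with a median of 4.02 TPM. Slc16a10, a transporter of aromatic amino acids, was highest at 135 and 124 TPM. Slc16a12, a creatine transporter, followed at 84.7 and 101 TPM. Slc16a1 and Slc16a3 ranked below 11 other members in both libraries, and only Slc16a14, with 2 reads and 1 read, was lower. Slc16a7, which encodes the high-affinity pyruvate and lactate carrier MCT2, had 0.622 and 0.660 TPM, and Slc16a8, which encodes the lactate carrier MCT3 of the retinal pigment epithelium, had 5.02 and 5.28 TPM. Their protein partners were abundant. Bsg (basigin), which brings MCT1 and MCT4 to the cell surface, had 539 and 499 TPM, and Emb (embigin), a partner of MCT2, had 140 and 135 TPM. In the principal transcript of Emb, 22.2% of the words were shared with other genes. Of the sodium-coupled carriers, Slc5a8 had 3 and 4 reads and Slc5a12 had none. Of these 6 genes outside the chosen 10 (Slc16a7, Slc16a8, Bsg, Emb, Slc5a8 and Slc5a12), 4 were detected, and 1, Bsg, was higher in library 1 by adjusted p in the exact test described below, as were 19.0% of all tested genes.

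**Figure D2:**
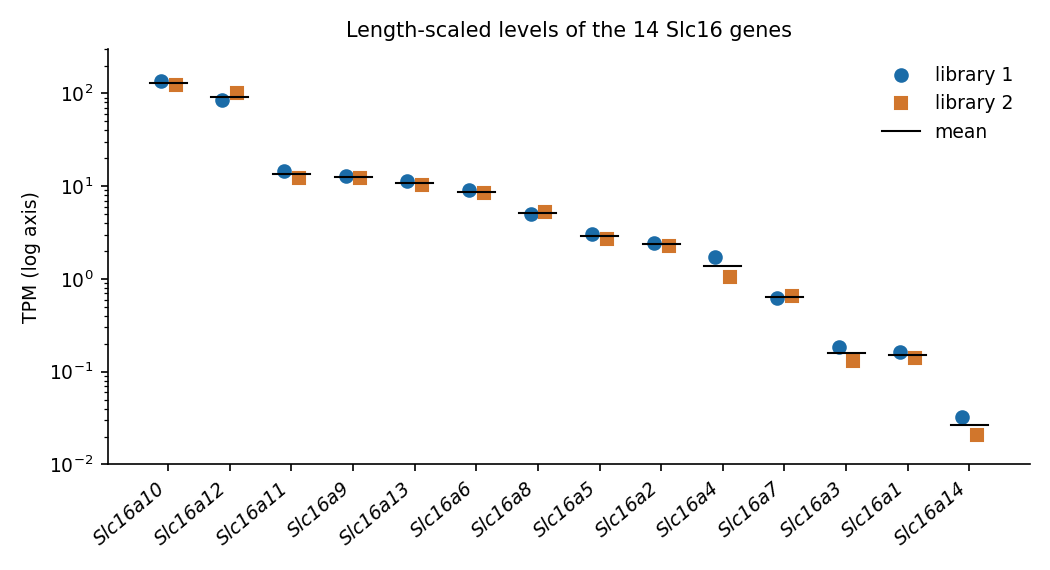
TPM of the 14 Slc16 genes in library 1 (circles) and library 2 (squares), ordered by their mean (line), on a log axis. Slc16a10 and Slc16a12 stand at the top, and Slc16a3, Slc16a1 and Slc16a14 form the low end, below 0.19 TPM.

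The genes that bring pyruvate into mitochondria were detected at moderate levels. Mpc1 and Mpc2 encode the obligate partners of the carrier in the inner membrane. Mpc1 had 323 reads in library 1 and 331 in library 2, or 6.44 CPM (exact 95% interval 5.76 to 7.19) and 8.49 CPM (7.60 to 9.45). Mpc2 had 1402 and 1136 reads, or 28.0 CPM (26.5 to 29.5) and 29.1 CPM (27.5 to 30.9). Per merged exon length the partners overlapped, with 8.53 and 11.1 TPM for Mpc1 and 10.5 and 10.8 TPM for Mpc2. The ratio of Mpc2 over Mpc1 was 1.23 (1.09 to 1.39) in library 1 and 0.973 (0.860 to 1.10) in library 2, a mean log2 ratio of 0.13 ± 0.24 (SD, n = 2). This ratio depends on the length used, with 1.95 without length scaling and -0.11 with the longest transcript. The merged exons behind the TPM span 7344 bases for Mpc2 and 2082 for Mpc1, whereas the principal transcripts span 1025 and 958 bases. The overlap therefore rests on the length used. It also held with the longest transcript, at 14.7 and 19.0 TPM for Mpc1 and 15.3 and 15.6 TPM for Mpc2. Per principal transcript, Mpc2 would lie above Mpc1, near the unscaled log2 ratio of 1.95.

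Mpc1 had the largest share of words in common with other genes among the 10. In its principal transcript, 44.2% of the 50-base words also occurred elsewhere, in part in the copy Mpc1-ps, which had 42 and 34 reads. Adding the reads of its annotated pseudogenes gave Mpc1 a mean of 10.9 TPM in place of 9.81. Of its merged exon bases, 23.1% lie under 4930506C21Rik on the opposite strand, which had 40 and 42 reads, shares words with Mpc1 and cannot be separated from it without strand information. In Mpc2, no word of the principal transcript was shared. Mpc1 (ENSMUSG00000023861) spans chr17:8282904-8297661 in 8 merged exons, and Mpc2 (ENSMUSG00000026568) spans chr1:165460637-165481214 in 5; both are plus-strand genes.

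Pyruvate carboxylase, the biotin enzyme that feeds oxaloacetate to the citric acid cycle, was among the most abundant of the 10 genes. Pcx had 7857 reads in library 1 and 7236 in library 2, or 157 CPM (exact 95% interval 153 to 160) and 186 CPM (181 to 190). Per length it had 90.9 and 106 TPM, a mean of 98.6 ± 10.9 TPM (SD, n = 2), at percentile 93.4 of the genes with at least 1 CPM, and 925 genes were higher. It exceeded Ldha 55.8-fold (45.8 to 68.9) in library 1 and 81.3-fold (63.3 to 106) in library 2, a mean log2 ratio of 6.07 ± 0.38 (5.40 with the longest transcript as the length). It also exceeded Pdha1, the catalytic alpha subunit of pyruvate dehydrogenase, by ratios of 1.35 (1.30 to 1.40) and 1.54 (1.48 to 1.60), a mean log2 ratio of 0.52 ± 0.14. In the principal transcript of Pdha1, 16.9% of the words were shared with other genes. Hlcs, the ligase that attaches biotin to carboxylases, had 18.9 and 17.4 TPM. Pcx (ENSMUSG00000024892) spans chr19:4510472-4621752, plus strand, in 25 merged exons.

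Among the kinases of pyruvate dehydrogenase, Pdk4 dominated. Pdk4, which is induced in other tissues by fasting and fatty acids, had 11263 reads in library 1 and 6122 in library 2, or 225 CPM (exact 95% interval 221 to 229) and 157 CPM (153 to 161). Its 176 and 122 TPM, a mean of 149 ± 38.6 TPM (SD, n = 2), placed it at percentile 96.2. By TPM it was the highest of the 10 genes in both libraries, and 526 genes of the tables were higher. In library 2 its lead over Pcx rests on the length used. There Pcx had 186 CPM against 157 CPM for Pdk4. With the longest transcript as the length, library 2 gave 97.1 TPM for Pdk4 and 96.4 TPM for Pcx. Pdk2, the kinase most sensitive to dichloroacetate, had 2781 and 1753 reads, or 55.5 CPM (53.4 to 57.6) and 44.9 CPM (42.9 to 47.1), and a mean of 43.5 ± 6.81 TPM. Pdk1, a known target of hypoxia-inducible factor, had 5687 and 2370 reads, or 113 CPM (111 to 116) and 60.8 CPM (58.3 to 63.3), and a mean of 30.7 ± 13.4 TPM (SD, n = 2). All 3 kinases were higher in library 1, and Pdk1 differed most. Pdk4 made up 62.4% and 61.8% of the summed TPM of Pdk1 to Pdk4, Pdk2 17.1% and 19.6%, Pdk1 14.2% and 10.8%, and Pdk3, on the X chromosome in mice, 6.30% and 7.74%.

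Within each library Pdk4 was above both of the others. The ratio of Pdk2 over Pdk4 was 0.274 (0.263 to 0.286) in library 1 and 0.318 (0.301 to 0.335) in library 2. The ratio of Pdk1 over Pdk4 was 0.228 (0.221 to 0.235) and 0.175 (0.167 to 0.183), a mean log2 ratio of -2.33 ± 0.27 that became -1.18 without length scaling. Pdk2 exceeded Pdk1 by ratios of 1.20 (1.15 to 1.26) and 1.82 (1.71 to 1.94), but this order rests on length, since without length scaling the mean log2 ratio was -0.73 in place of 0.56. Only 1.43% of the words of the principal transcript of Pdk4 were shared with other genes, and none for Pdk1 or Pdk2. Pdk1 (ENSMUSG00000006494) spans chr2:71873224-71903858, plus strand, in 13 merged exons. On the minus strand, Pdk2 (ENSMUSG00000038967) spans chr11:95026258-95041354 in 12 and Pdk4 (ENSMUSG00000019577) spans chr6:5483351-5496309 in 11.

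The target complex of the kinases was expressed in full. All 5 subunits of the pyruvate dehydrogenase complex were detected, with a median of 68.3 TPM. Pdhb, the beta subunit of the first enzyme, had 74.0 and 69.1 TPM, and Dld, the dihydrolipoamide dehydrogenase, had 69.8 and 71.7 TPM. The lowest were Dlat, the acetyltransferase core, at 26.4 and 25.8 TPM, and Pdhx, which anchors Dld to that core, at 9.04 and 8.81 TPM. The phosphatases that reverse the kinases were lower than Pdk4, Pdk2 and Pdk1. The catalytic subunit genes Pdp1 and Pdp2 had 4.10 and 5.45 TPM and 4.403 and 5.59 TPM. The regulatory subunit Pdpr had 18.1 and 13.8 TPM. By the exact test between the libraries described below, 1 of the 5 complex genes (Pdhb) was higher in library 1 (19.0% of all tested genes) and none lower (13.4%), while of Pdk3 and the 3 phosphatase genes, Pdk3 and Pdpr were higher and Pdp1 and Pdp2 lower.

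**Figure D3:**
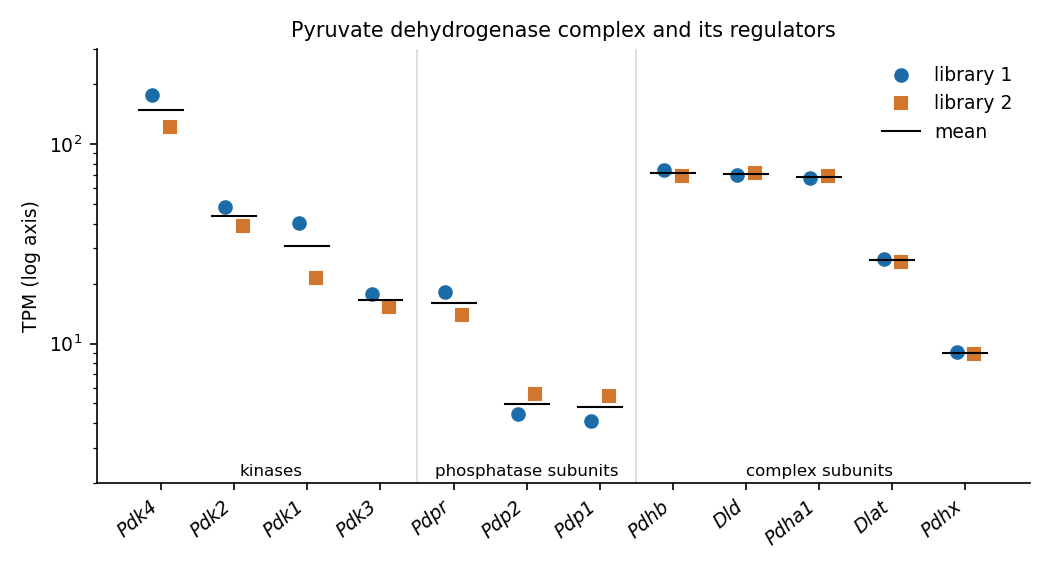
TPM of the pyruvate dehydrogenase kinases, phosphatase subunits and complex subunits in library 1 (circles) and library 2 (squares), with the mean as a line, on a log axis. Pdk4, at 176 and 122 TPM, lies above every complex subunit, and the catalytic phosphatase genes Pdp1 and Pdp2 lie below 5.6 TPM.

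By mean TPM the 10 genes ranked Pdk4, Pcx, Pdk2, Pdk1, Ldhb, Mpc2, Mpc1, Ldha, Slc16a3 and Slc16a1. For 3 pairs of neighbours, Pdk2 with Pdk1, Mpc2 with Mpc1 and Slc16a3 with Slc16a1, the ranges of the libraries overlapped. The other 6 pairs of neighbours had ranges apart. Without length scaling, the CPM ranges of Pdk4 and Pcx overlapped, whereas those of Mpc2 and Mpc1 were apart. The gap was narrow between Ldhb and Mpc2, where the lower value of Ldhb was 11.1 TPM and the higher value of Mpc2 was 10.8 TPM. Beyond neighbours, Ldhb also overlapped Mpc1, which ranked lower by its mean and reached 11.1 TPM in library 2. With n = 2 such an order is a description of these libraries.

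**Figure D4:**
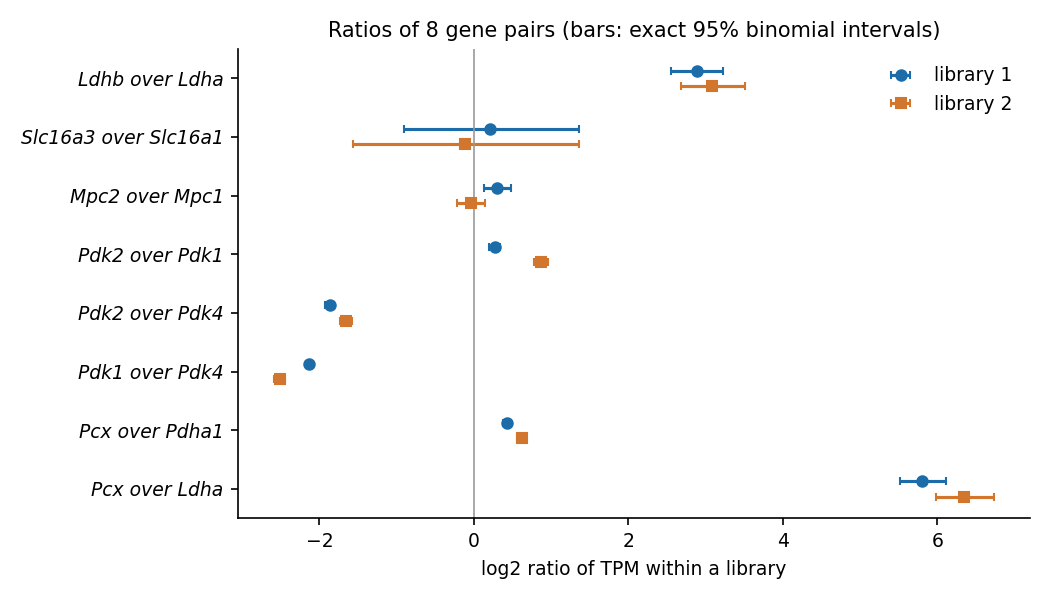
Log2 ratio of TPM of 8 gene pairs in library 1 (circles) and library 2 (squares), with exact 95% binomial intervals of the pair's reads as bars, which cover counting error only. Pcx over Ldha lies at 5.80 and 6.34 and Ldhb over Ldha at 2.88 and 3.08, while Slc16a3 over Slc16a1 crosses 0 in both libraries.

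The difference between the libraries was then measured for each gene with an exact two-sided binomial test of its reads against the library totals, with Benjamini-Hochberg adjustment over 20681 genes with at least 10 reads. It compares the reads of these libraries, not conditions, and may reflect technical spread. The libraries differed beyond sampling noise (chi-square per gene 28.6). The p-values and intervals of this test cover counting error only and do not measure the spread between replicates. None of the 10 genes was called, which required an adjusted p under 0.05 and a 2-fold ratio, against 4.31% of the tested genes called. At an unadjusted p under 0.05 there were 5, and the same number passed the adjusted p alone. Higher in library 1 by adjusted p were 3 of the 10 genes, all of them kinases, against 19.0% of the tested genes, and lower were 2, Pcx and Mpc1, against 13.4%. With 10 genes, neither count is a result about the group as a whole. The log2 ratios of library 1 over library 2 had a median of 0.22 for the 10 genes and 0.04 for all tested genes.

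Pdk1 differed most among those that passed, with 113 CPM in library 1 against 60.8 CPM in library 2 and thus a log2 ratio of 0.90 (95% interval 0.83 to 0.97, adjusted p = 3.15e-152 by the exact binomial test). The size of this ratio was at percentile 96.8 of the genes with at least 1 CPM. Pdk1 was called when the limit was set at 1.5-fold, where 8.05% of the tested genes were called. Pdk4 had a log2 ratio of 0.52 (0.47 to 0.56, adjusted p = 2.40e-114, exact test), and Pdk2 had 0.30 (0.22 to 0.39, adjusted p = 5.19e-11, exact test). Under the other scalings tried (TMM, DESeq2 size factors and totals without the 10 highest genes) the 3 kinases kept their direction and passed the test. Pdk3 also passed it, with a log2 ratio of 0.21 (adjusted p = 0.0296, exact test).

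Pcx had a log2 ratio of -0.24 (-0.29 to -0.20, adjusted p = 1.65e-23, exact test), and Mpc1 had -0.40 (-0.62 to -0.17, adjusted p = 0.00217, exact test). Both were lower in library 1 under every scaling tried. Among the genes with at least 1 CPM, the size of the ratio was at percentile 69.0 for Pcx and 84.0 for Mpc1. It was at percentile 76.5 for Pdk2 and 89.7 for Pdk4. The remaining 5 did not pass. Their log2 ratios were 0.29 (-0.17 to 0.78) for Ldha, 0.10 (-0.14 to 0.34) for Ldhb, 0.15 (-1.17 to 1.58) for Slc16a1, 0.46 (-0.71 to 1.76) for Slc16a3 and -0.06 (-0.17 to 0.06) for Mpc2. The intervals of the transporter genes were wide enough to hold a 2-fold difference in either direction for Slc16a1 and a 2-fold higher level in library 1 for Slc16a3. Acinar markers were higher in library 2, at sums of 113 CPM in library 1 against 547 CPM in library 2, and their part in the ratios of Pcx, Mpc1 and the kinases was not tested. The part of the mix of males and females in these ratios was not tested either.

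**Figure D5:**
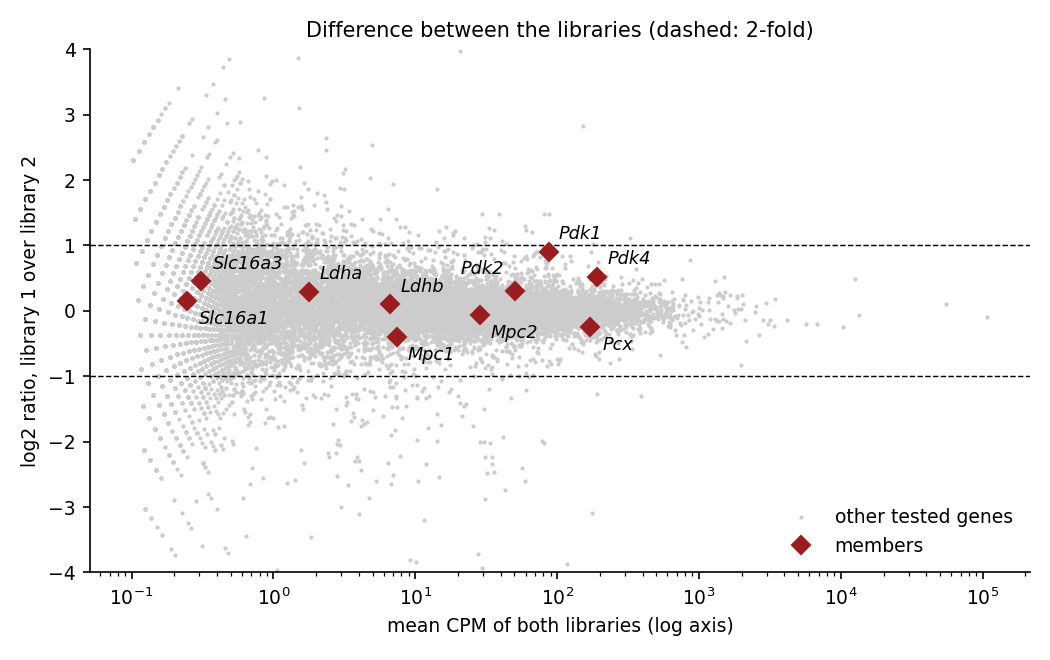
Log2 ratio of library 1 over library 2 against mean CPM (log axis) for the 10 genes (diamonds) and the other tested genes (grey), with dashed lines at 2-fold. Pdk1, at 0.90, lies nearest to the upper line and Mpc1, at -0.40, is the lowest of the 10; 72 grey genes beyond 4 log2 units are outside the axis.

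Genes upstream and downstream of the 10 were described from lists drawn up by function, with earlier results of these data known. All 7 genes whose enzymes form pyruvate were detected, with a median of 10.05 TPM, led by the pyruvate kinases Pkm at 328 and 294 TPM and Pklr at 45.6 and 27.2 TPM. Their lowest were Me3, a mitochondrial malic enzyme, at 2.33 and 1.62 TPM and Gpt, an alanine aminotransferase, at 6.82 and 6.79 TPM. In this list 4 genes were higher in library 1 by adjusted p, against 19.0% of the tested genes, none was lower, against 13.4%, and none was called, against 4.31%. All 10 genes of pyruvate cycling, which returns the carbon fixed by Pcx to the cytosol, were detected, with a median of 58.6 TPM. Acly, the ATP citrate lyase, had 1617 and 1469 TPM, and Mdh1, the cytosolic malate dehydrogenase, had 289 and 297 TPM. At the low end were Slc25a10, the dicarboxylate carrier, with 12.98 and 9.90 TPM and Pck1, the cytosolic phosphoenolpyruvate carboxykinase, with 0.930 and 1.24 TPM. The mitochondrial form Pck2 had 42.8 and 39.2 TPM. In this list 5 genes were higher in library 1 by adjusted p (19.0% of the tested genes), 3 were lower (13.4%), and none was called (4.31%).

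Transcription factors and oxygen-sensing genes known to act on the Pdk genes, Ldha and Slc16a3 were detected in 15 of 16 cases, with a median of 21.2 TPM. The prolyl hydroxylases Egln2, at 63.8 and 61.1 TPM, and Egln1, at 44.6 and 40.4 TPM, which mark hypoxia-inducible factor for degradation, were highest. The lowest were also the only genes of the list called between the libraries, 2 of 16 against 4.31% of the tested genes. Ppara, a fatty acid receptor that induces Pdk4 in liver, had 1.76 CPM in library 1 against 0.820 CPM in library 2 (log2 ratio 1.08). Ppargc1a, a coactivator of mitochondrial genes, had 1.10 and 2.69 CPM (log2 ratio -1.29). By adjusted p, 6 of the 16 were higher in library 1, against 19.0% of the tested genes, and 2 were lower, against 13.4%.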

How the data were processed

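The members and gene lists were chosen with earlier results of these data known. RNA of 2 libraries of 1 group was measured. Per the submitters' processing notes, reads went through featureCounts 2.0.2, STAR 2.7.8a and cutadapt 2.10, named without an order, on GRCm38.p6. Their settings, strand use and treatment of multi-mapping reads were not given in the sources used here, and the kit named in the labels does not mark strand. Per the file headers, the authors deposited a raw read count, a CPM and a TPM value per gene. The deposited CPM equalled the count scaled by the library's counted reads, with a largest difference of 1.8e-12. The length implied by the deposited TPM lay within 1% of the merged exons of GENCODE M21 in 98.3% of 16229 genes.

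From these, means with SD, exact Clopper-Pearson intervals at 95%, TPM ratios within libraries, and an exact two-sided binomial test with Benjamini-Hochberg adjustment were computed (Python 3.11.15, scipy 1.17.1). Genes needed 10 reads summed, ratios between libraries had 0.5 read added, and a call needed an adjusted p under 0.05 and a 2-fold ratio. The script was tested on simulated reads with counting noise only, which does not show how the test behaves on libraries with more spread. Intervals cover counting error only, since PCR copies cannot be told from separate molecules. With 1 group, edgeR's quasi-likelihood test between the libraries has no residual degrees of freedom and was not run; edgeR 4.0.16 and DESeq2 1.42.0 gave scaling factors for alternatives. The libraries differed beyond sampling noise (chi-square per gene 28.6) and were counted as 2. Named were all members and, of each of 9 pathway lists of 69 genes, the 2 highest, the 2 lowest and any gene called; of the 10 marker lists, sums are given. Genes beyond that rule, the 14 Slc16 genes and the motif CACGTG were chosen after values were seen. Words of 50 bases were compared over all GENCODE M21 transcripts. Promoter sequences are RefSeq's on GRCm38.p6, and all 10 members matched. Alternatives covered scaling, filters, limits, length and each library left out.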

Additional observations from a re-analysis of the deposited data

How the results depend on the processing

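No paired analysis was possible because the libraries form 1 group. With detection at 0.5 CPM, 8 members were detected, at 1 TPM 8 and at 5 CPM 7. None was called under TMM or DESeq2 scaling, totals without the 10 highest genes, no filter on low counts or 1 read added, and 1 (Pdk1) at a 1.5-fold limit. All 10 log2 ratios between the libraries kept their direction and side of the threshold under the 3 other scalings and with 1 read added. Mean log2 ratios of pairs without length scaling were 1.91 for Ldhb over Ldha, 0.31 for Slc16a3 over Slc16a1, 1.95 for Mpc2 over Mpc1, -0.73 for Pdk2 over Pdk1 (reversed), -1.18 for Pdk1 over Pdk4, 0.87 for Pcx over Pdha1 and 6.60 for Pcx over Ldha. With the longest transcript they were 2.38 for Ldhb over Ldha, 0.34 for Slc16a3 over Slc16a1, -0.11 for Mpc2 over Mpc1, -1.28 for Pdk2 over Pdk4, -1.75 for Pdk1 over Pdk4, 0.33 for Pcx over Pdha1 and 5.40 for Pcx over Ldha. These alternatives differ from the reported values in the gene length alone. The longest transcript also moved the mean of Ldha to 2.12, Slc16a1 to 0.12, Mpc1 to 16.9 and Mpc2 to 15.4 TPM. Ranks by level moved for 5 members without length scaling, 5 without library 1 and 2 with the longest transcript. With each library left out, the log2 ratio ranged from 2.88 to 3.08 for Ldhb over Ldha, -0.11 to 0.20 for Slc16a3 over Slc16a1, -0.04 to 0.30 for Mpc2 over Mpc1, 0.27 to 0.86 for Pdk2 over Pdk1, -1.87 to -1.65 for Pdk2 over Pdk4, -2.52 to -2.13 for Pdk1 over Pdk4, 0.43 to 0.62 for Pcx over Pdha1 and 5.80 to 6.34 for Pcx over Ldha, and 8 members were detected either way. Adding the reads of pseudogenes, an alternative chosen after seeing the data, moved Ldha to 1.81 TPM. Depth limits Slc16a1 and Slc16a3, with at most 18 reads in a library.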

Other observations

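The cytosolic NADH that lactate dehydrogenase would otherwise reoxidise can be passed to mitochondria by the glycerol phosphate and malate-aspartate shuttles. All 7 genes of these shuttles were detected, with a median of 27.5 TPM. By adjusted p in the exact binomial test, 2 were higher in library 1 (19.0% of all tested genes), 2 were lower (13.4%), and 1 was called (4.31%). That was Gpd1l, related to the cytosolic glycerol-3-phosphate dehydrogenase Gpd1, with 36.9 CPM in library 1 against 314 CPM in library 2 (log2 ratio -3.09). Gpd1 itself had 46.4 and 45.0 TPM and did not pass the test (adjusted p = 0.712, exact test). Gpd2, the mitochondrial partner of Gpd1, had 74.2 and 62.2 TPM. The lowest were Slc25a13, an aspartate-glutamate carrier, at 3.92 and 4.21 TPM and Got2, the mitochondrial aspartate aminotransferase, at 21.4 and 20.7 TPM. In the principal transcript of Got2, 47.2% of the words were shared with other genes, and Slc25a12 was close at 23.7 and 21.8 TPM.

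Of 11 other genes known as targets of hypoxia-inducible factor, 8 were detected, with a median of 11.3 TPM. By adjusted p, 3 were higher in library 1 (19.0% of all tested genes) and 4 were lower (13.4%), and 2 were called (4.31%). Vegfa, the vascular growth factor, was highest at 476 and 447 TPM, followed by the prolyl hydroxylase P4ha1 at 38.7 and 43.3 TPM. Pfkfb3, which makes the activator of phosphofructokinase, was called higher in library 1, with 41.8 and 20.2 CPM (log2 ratio 1.05). Slc2a1, a glucose transporter, was lower in library 1 by adjusted p but short of 2-fold, with 10.4 and 17.7 CPM (log2 ratio -0.77). Adm, adrenomedullin, was called lower in library 1, with 0.180 and 0.641 CPM (log2 ratio -1.79). Car9, carbonic anhydrase 9, had 11 and 2 reads and did not pass (adjusted p = 0.124, exact test).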
